A study of Mus musculus with 6 samples.

Results

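Motor proteins turn ATP into movement along the cytoskeleton. Kinesins and cytoplasmic dynein walk along microtubules, most kinesins toward the plus end and dynein toward the minus end, and myosins pull on actin filaments. In the gastric parietal cell, the acid-secreting cell of the stomach gland, actin and membrane traffic are central, because stimulation moves the proton pump H+/K+ ATPase from internal tubulovesicles to the apical membrane of the canaliculus. Class II myosin and dynein work as complexes of long heavy chains with short light chains. For the non-muscle myosin II genes tested below, role and transcript length went together: 678 to 2143 bases for light chains and 6457 to 7433 for heavy chains. For the tested dynein genes the ranges overlapped, with 684 to 3321 bases for light chains and 1354 to 14342 for the larger subunits.

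The gene set was made of all rows of the deposited expression table whose symbols name a kinesin, a numbered myosin heavy or light chain, or a subunit of cytoplasmic dynein (symbols that begin with Kif and a digit or c, Myo, Myh or Myl and a digit, Dync1, Dync2 or Dynl). This rule found 107 of the 23284 genes listed: 42 kinesins, 38 myosin heavy chains, 11 myosin light chains and 16 dynein subunits. RNA was measured in 6 libraries of mouse parietal cells, marked by tdTomato, a red fluorescent protein, and sorted by flow cytometry. The 3 control libraries carry the genotype label Transgenic-Tom. The 3 noggin libraries carry the label Transgenic-Tom-nog and come from mice with H+/K+-Cre, H+/K+-Nog and the Rosa26-tdTom reporter together, in which the promoter of the H+/K+ ATPase, active in parietal cells, drives both Cre and noggin, a secreted protein that blocks bone morphogenetic proteins. The labels give no age, and whether a replicate stands for 1 animal or for pooled animals is not stated. The sample titles call the libraries biological replicates. The p-values therefore measure the spread between these libraries, and whether that is a spread between single animals is not known.

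Values are FPKM (fragments relative to transcript length and to the mapped fragments of the library), as the authors deposited them, and sequencing depth is unknown. Noggin RNA (Nog) was at 1.31 ± 0.583 FPKM in the controls and 2434 ± 259 in the noggin libraries (mean ± SD, n = 3 each), as the labels say. Total FPKM ranged from 595736 to 1188186 per library. Noggin replicate 3 stood apart: it listed 542 of the 10644 tested genes at 0, where each other library listed 19 to 34. Across the tested motor genes its Spearman correlation with the other libraries was 0.587 to 0.691, against 0.960 to 0.981 among the controls, a description over genes that are not independent replicates. Defining markers of the parietal cell were abundant in both groups, with Atp4a, the catalytic subunit of the proton pump, at 14420 ± 1562 FPKM in the controls and 6275 ± 1176 in the noggin libraries. Atp4a was not called (log2 fold change -1.21, limma adjusted p = 0.124). Atp4b, the other pump subunit, was at 16880, 21420 and 21150 FPKM against 25180, 22420 and 21470, at 0.22 (limma adjusted p = 0.814). Of 15 tested parietal cell markers 4 were called lower and 0 higher. With fold changes corrected for transcript length 0 were called. The median log2 fold change was -0.90 with 11 negative and 4 positive, and -0.63 with 12 negative and 3 positive after the correction. Gif, among the positive ones in both, was also counted in the chief cell list below. By limma at an unadjusted p under 0.05, 10 of these markers were lower and 1 higher, and 11 lower and 1 higher after the correction. Over all tested genes 10.9% were lower and 15.8% higher at that level, and 7.19% and 9.63% after the correction. Called lower were 0.695% of all tested genes and called higher 1.75%, and 0.152% and 0.512% with the correction. Of 7 tested mucous neck cell markers 5 were called higher, 3 of 7 with the length correction, and the summed level of that list was 2467 to 3374 FPKM in the controls and 10780 to 25880 in the noggin libraries. The chief cell list summed to 60950 to 112000 FPKM against 131300 to 357900, with 0 calls among 7 tested genes by limma and 2 at an unadjusted p under 0.05. Its sum was mostly Clps and Pgc. Clps, with a transcript of 491.5 bases, was at 44840, 39750 and 22780 FPKM against 169000, 73510 and 244800. Pgc overlapped, at 66220, 51850 and 37490 against 42140, 56450 and 110400, with log2 fold changes of 0.34 and, corrected, -0.11. The list median was 0.89 with 6 of 7 positive, and 0.52 after the correction. The enteroendocrine list summed to 456 to 2722 against 1912 to 28730, ranges that overlap, with 2 of 9 called higher and 0 with the length correction. Its median log2 fold change was 1.90, and 1.99 after the correction, each with 8 of 9 positive. The pit cell list had 3 positive and 3 negative log2 fold changes, at a median of -0.23, and with the correction all 6 were negative at a median of -0.60. The part of these cells in the motor gene results was not tested, and in such bulk samples fewer cells of a type and less RNA per cell cannot be told apart.

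A gene was tested when it reached 1 FPKM in at least 3 of the 6 libraries, on log2(FPKM + 1), a scale that understates the change of low genes. Groups were compared with limma's moderated test, two-sided, with Benjamini-Hochberg adjustment over all 10644 tested genes, and a gene was called changed at an adjusted p under 0.05. Of the 107 motor genes 51 were tested: 22 kinesins, 15 myosin heavy chains, 4 myosin light chains and 10 dynein subunits. The other 56 were too low, and 3 of those (Dynlt1c, Dynlt1f and Myl3) were listed at 0 in all libraries. Every adjusted p below is from this test unless another setting is named.

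Of the 51 tested motor genes 1 was called higher in the noggin libraries and 2 were called lower. Over all tested genes 1.75% were called higher and 0.695% lower. The kinesins Kifc3 and Kif1a fell and the dynein light chain Dynll1 rose. The number of calls moved with single libraries, over all genes as well as among motors. Without control replicate 1, 2 or 3 no motor gene was called by limma, with 4 to 6 higher and 5 to 8 lower at an unadjusted p under 0.05, and over all tested genes 4 to 39 were called higher and 5 to 7 lower. Without noggin replicate 1, 2 or 3 the motor calls were 1, 14 and 3. Without replicate 2 they were 5 higher and 9 lower, beside 1187 higher and 825 lower over all tested genes. With the libraries rescaled to equal total FPKM 1 motor gene was called higher and 6 lower, and over all tested genes the calls went from 186 higher and 74 lower to 115 and 666. Without overlap between the groups, 18 motor genes (35.3%) were lower and 7 (13.7%) higher in the noggin libraries, while over all tested genes 18% were lower and 20.3% higher. At an unadjusted p under 0.05 the motor genes numbered 15 lower (29.4%) and 7 higher (13.7%), against 10.9% and 15.8% of all tested genes. The median log2 fold change of the tested motor genes was -0.41, with 34 negative and 17 positive, beside a median of -0.03 for all tested genes.

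Motor transcripts were long, and in these libraries the fold change went with transcript length. The median transcript of a tested motor gene had 4627 bases, against 2674 for all tested genes with a length. The Spearman correlation of log2 fold change with length was -0.56 across the 51 motor genes and -0.56 across the 10542 tested genes that had a length; both are descriptions across genes of the same 6 libraries. Among motor genes under 1000 bases the median log2 fold change was 0.99 (3 genes). From 1000 to 2000 bases it was 0.17 (2 genes), and from 2000 to 3000 bases 0.36 (10 genes). Between 3000 and 5000 bases it was -0.41 (15 genes), and at 5000 bases or more -0.89 (21 genes). The medians of all tested genes in the same ranges were 0.80, 0.40, -0.03, -0.37 and -0.54. The motor medians thus did not fall steadily from range to range.

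To set each motor gene beside others of its length, a curve on transcript length was fitted to the log2 values of each library relative to the average library and subtracted, and the test was repeated. After this length correction 0 of the 51 motor genes were called by limma, while 0.512% of all genes with a length were called higher and 0.152% lower. The median log2 fold change of the motor genes was then -0.07, with 24 positive and 27 negative, against -0.01 for all genes. Without noggin replicate 2 the correction left 3 motor genes called higher, Dynll1, Myl12a and Myl7, beside 249 higher and 105 lower over all genes. Myl7 had passed the filter only through its noggin values. The correction moved 40 of the 51 motor genes up and 11 down, and 7 changed sign. At an unadjusted p under 0.05 there were 7 motor genes higher and 5 lower (13.7% and 9.8%), against 9.63% and 7.19% of all genes. The 21 motor genes of 5000 bases or more kept a lower median than other genes of that length after the correction, -0.38 against -0.03, as a description with no test. The 10 motor genes of 2000 to 3000 bases kept a higher one, 0.31 against -0.01, also with no test.

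**Figure D1:**
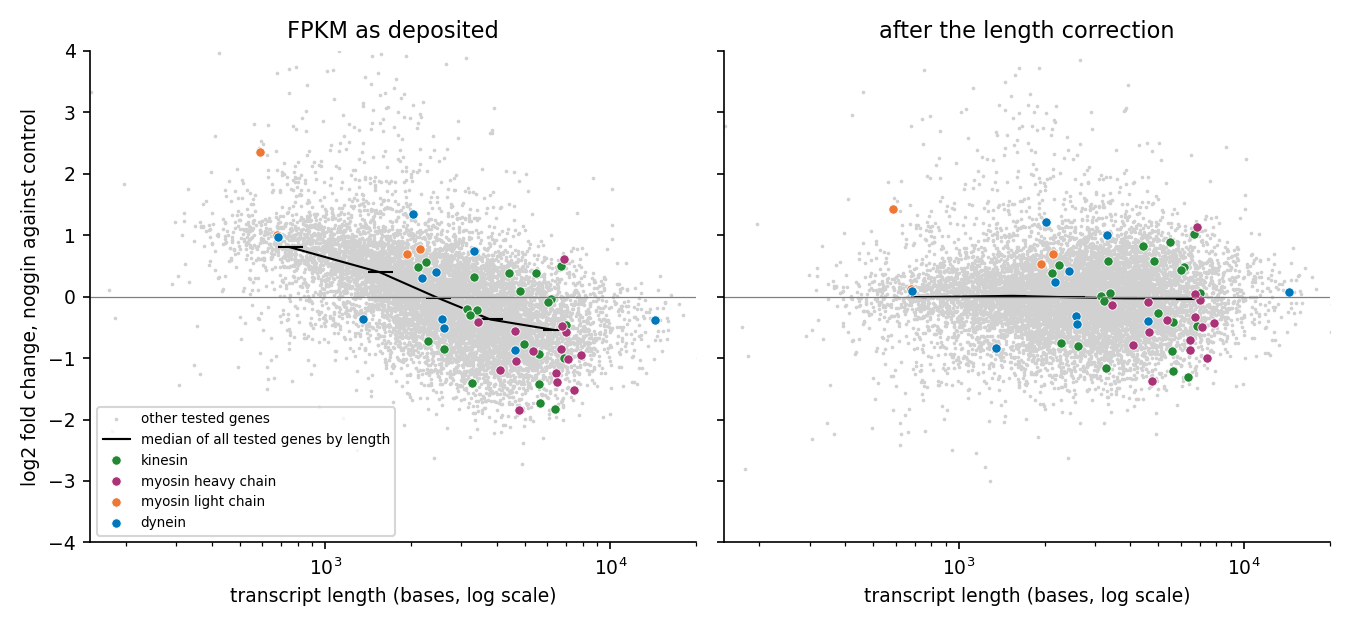
Log2 fold change of noggin against control libraries (vertical axis) against transcript length in bases (horizontal log axis), for FPKM as deposited (left) and after the length correction (right). Grey points are tested genes, coloured points are the 51 tested motor genes by class, and the black line joins the medians of all tested genes in 5 length ranges; 95 genes on the left and 92 on the right lie outside the axes. On the left the motor genes run down with length along with the grey points, and on the right the black line is flat.

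Kifc3 was the kinesin with the smallest p. It encodes a minus-end directed kinesin, known from epithelial cells for transport to the apical membrane and at adherens junctions, and lies on chromosome 8 (chr8:95099828-95202812, minus strand, GRCm38). Its FPKM was 43.6, 37.9 and 44.2 in control replicates 1 to 3 and 17.9, 13.6 and 14.1 in noggin replicates 1 to 3. All 3 noggin libraries were low and close together, and all 3 controls were high. The log2 fold change was -1.41 (SE 0.208, limma adjusted p = 0.0293). After the length correction it was -1.17 (SE 0.237, adjusted p = 0.0725), so the call was lost. With length taken as the median over all annotated transcripts it was called, at -1.54 (adjusted p = 0.0318). Without control replicate 1, 2 or 3 the adjusted p was 0.161, 0.115 or 0.214, at a log2 fold change between -1.48 and -1.37; without noggin replicate 1, 2 or 3 it stayed called.

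Kifc3 overlaps other genes on the opposite strand, and no source used here says that the libraries kept strand. Of the 50-base stretches of its annotated transcripts 20.1% also occur, on either strand, in other genes, so part of its level is uncertain. The other tested member of the kinesin-14 family, Kifc2, was at 5.89, 4.91 and 5.35 FPKM against 4.14, 4.04 and 4.31, a log2 difference of -0.30 (adjusted p = 0.499) that was -0.07 after the length correction.

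Kif1a fell as well. It is a fast plus-end directed motor of the kinesin-3 family, known in neurons for the transport of synaptic vesicle precursors and dense core vesicles, and lies on chromosome 1 (chr1:93015464-93101951, minus strand, GRCm38). Its FPKM was 4.70, 8.52 and 6.20 in the controls and 0.816, 1.83 and 1.08 in the noggin libraries. The groups did not overlap, and all noggin values lay near the 1 FPKM set for testing. The log2 fold change was -1.73 (SE 0.345, limma adjusted p = 0.0497), and -1.21 after the length correction (adjusted p = 0.124), or -1.91 (adjusted p = 0.0466) with the other definition of length. The adjusted p was 0.177, 0.225 and 0.283 without control replicates 1, 2 and 3, and 0.0817 without noggin replicate 1. Without noggin replicate 2 or 3 it stayed called (0.0230 and 0.0416), and over these 6 settings the log2 fold change was -1.91 to -1.54.

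The other kinesins that carry vesicles and organelles were mostly on the negative side. Of 13 kinesin-1, kinesin-2 and kinesin-3 cargo motors 9 were tested, 8 of them with a negative log2 fold change, 1 called, at a median of -0.93 that was -0.48 after the length correction. All 9 were negative when the libraries were rescaled to the same total FPKM, a scaling that moved the median of all tested genes from -0.03 to -0.65. Kif5b, the kinesin-1 heavy chain of most cell types, was the most abundant at 20.3, 28.4 and 25.6 FPKM in the controls and 20.7, 20.0 and 29.3 in the noggin libraries. Its groups overlapped almost fully, and its log2 fold change of -0.09 (SE 0.243) became 0.43 (SE 0.250) after the length correction.

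Of the other kinesin-3 motors tested none was called. Kif13b, a kinesin-3 that binds the scaffold protein Dlg1, was at 5.49, 5.64 and 6.93 FPKM against 2.53, 1.75 and 0.859, without overlap, with a difference of -1.41 (adjusted p = 0.0763) that became -0.89 after the correction. Kif16b, a motor of early endosomes, was at 9.22, 10.7 and 11.0 FPKM against 2.87, 7.02 and 0.0253, so its difference of -1.83 on the log2 scale (SE 0.685, adjusted p = 0.146) drew on a near-zero value in noggin replicate 3. Kif1b, which carries mitochondria and synaptic vesicle precursors, overlapped between groups, at 5.84, 6.96 and 7.87 FPKM against 3.65, 3.33 and 8.10. Its log2 fold change was -0.47 as deposited and 0.05 after the correction.

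**Figure D2:**
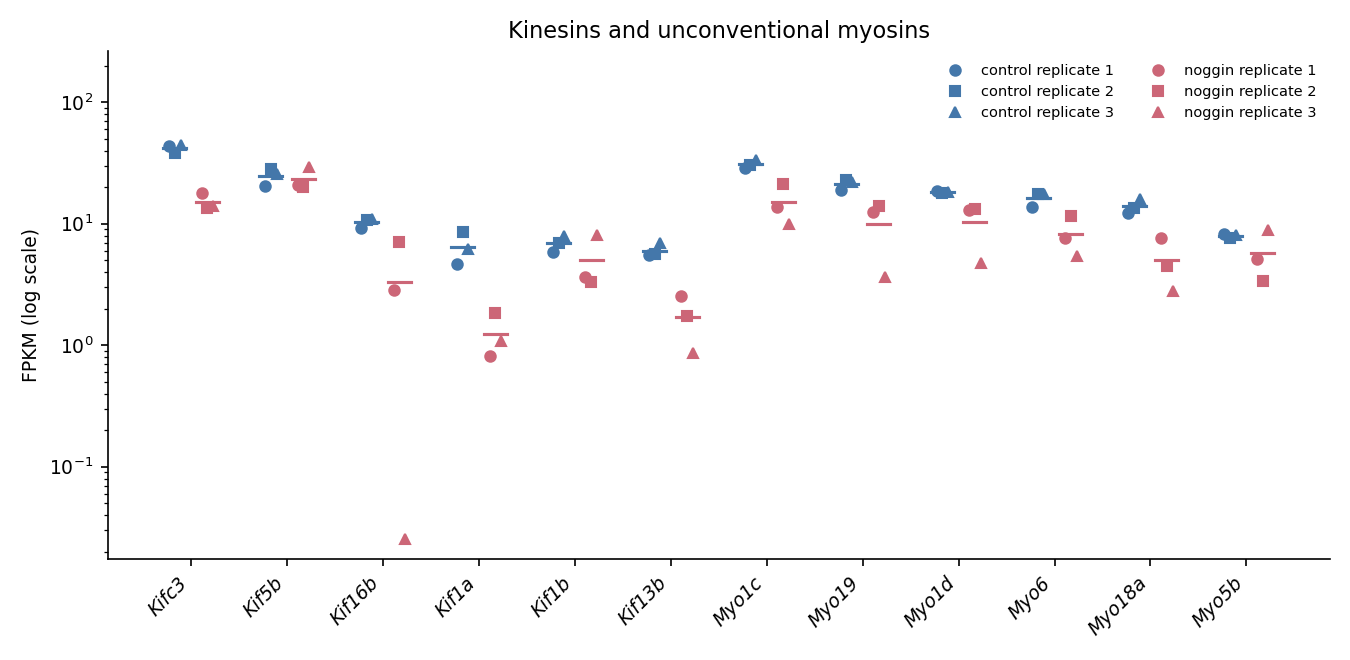
FPKM (vertical log axis) of 6 kinesins and 6 unconventional myosins in each of the 6 libraries; blue points are controls, red points noggin libraries, shapes the replicate numbers and bars the group means. Kifc3 and Kif1a are separated between the groups, Kif5b overlaps, and noggin replicate 3 is at 0.0253 FPKM for Kif16b.

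Mitotic kinesins, which build and move the spindle, gave no limma call in either direction, and 0 had an unadjusted p under 0.05. Of 14 such genes 8 were tested, 4 positive and 4 negative, at a median log2 fold change of -0.06 and 0.22 after the length correction; on the scale of equal totals 7 of the 8 were negative. Kif22, a chromosome arm motor, was at 8.95, 6.82 and 3.54 FPKM against 13.2, 8.20 and 6.41. Kif20a, needed for cytokinesis, was at 6.52, 4.77 and 3.54 against 0.798, 6.27 and 8.82, so that the noggin libraries held both its lowest and its highest value. Kif23, a central spindle motor, was at 5.96, 5.15 and 2.68 FPKM against 2.45, 4.36 and 4.47, and Kif11, which slides spindle microtubules apart, at 3.09, 3.26 and 2.11 against 1.55, 5.58 and 2.89. All 4 overlapped between groups, with adjusted p from 0.457 to 0.900. A list of 16 tested proliferation markers gave 0 limma calls, with 3 higher and 0 lower at an unadjusted p under 0.05, and its summed level was 122 to 204 FPKM in the controls and 181 to 267 in the noggin libraries. Of the stretches of 50 bases in Kif20a 28.1% also occur in Cdc23 on the opposite strand.

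Among 5 other tested kinesins Kifc3 was the single call. Kif21a, a kinesin-4 that limits microtubule growth, was at 5.95, 8.77 and 7.23 FPKM against 5.45, 6.86 and 9.03, and its log2 fold change of -0.05 was 0.48 after the length correction and 0.04 with quantile normalization. Kif12 was at 2.10, 1.30 and 1.95 FPKM against 0.941, 6.13 and 3.86, with overlap between the groups. Kif2a, a microtubule depolymerase, was at 0.907, 1.74 and 1.203 against 1.90, 2.35 and 1.61, and 22.1% of its 50-base stretches are shared, mostly with Dimt1.

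Dynll1 was the only motor gene called higher in the test on FPKM as deposited. It encodes the light chain LC8, a small dimeric hub of dynein that also joins myosin V and many other partners, and lies on chromosome 5 (chr5:115297110-115300999, minus strand, GRCm38). Its FPKM was 48.4, 68.4 and 56.9 in the controls and 183, 101 and 172 in the noggin libraries. The groups did not overlap, with noggin replicate 2 the nearest to the controls. The log2 fold change was 1.34 (SE 0.269), and its limma adjusted p of 0.04997 lay at the threshold. After the length correction the log2 fold change was 1.21 (SE 0.287, adjusted p = 0.1003). On the scale of equal totals it was 0.64 (adjusted p = 0.0873). Leaving out control replicate 1, 2 or 3 gave adjusted p of 0.227, 0.153 and 0.247, leaving out noggin replicate 1 or 3 gave 0.0860 and 0.0643, and without noggin replicate 2 it was 0.0162, at log2 fold changes between 1.19 and 1.61.

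Its paralog Dynll2, the other LC8 gene, was at 11.7, 15.7 and 12.5 FPKM in the controls and 27.5, 10.4 and 19.6 in the noggin libraries. These groups overlapped through noggin replicate 2, and the difference was 0.41 on the log2 scale (SE 0.358, adjusted p = 0.483). A difference between paralogs could be blurred where reads fit both, so the first 90 coding bases of each pair of light chain paralogs are given here from GENCODE M21 transcripts (GRCm38), 5′ to 3′, with capitals at the positions where the 2 members of a pair differ. Dynll1 is on chromosome 5 and Dynll2 on chromosome 11, and the regulatory light chain genes Myl12a and Myl12b lie side by side on chromosome 17 (chr17:70993656-71002878 and chr17:70973133-70990890, both on the minus strand).
Dynll1: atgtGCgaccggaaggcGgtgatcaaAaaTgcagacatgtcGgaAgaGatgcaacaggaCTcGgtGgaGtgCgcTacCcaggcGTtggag
Dynll2: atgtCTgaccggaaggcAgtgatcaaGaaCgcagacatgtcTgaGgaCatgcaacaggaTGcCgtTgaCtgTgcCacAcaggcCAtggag
Myl12a: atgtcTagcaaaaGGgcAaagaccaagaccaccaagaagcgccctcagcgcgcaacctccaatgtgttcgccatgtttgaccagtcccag
Myl12b: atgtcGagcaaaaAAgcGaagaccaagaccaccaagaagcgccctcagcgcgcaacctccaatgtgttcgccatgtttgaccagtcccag
Over the whole coding sequence Dynll1 and Dynll2 share 219 of 270 bases (81.1%), with no identical run longer than 16 bases, so a read of 50 bases from the coding part of one does not match the other exactly. Myl12a and Myl12b share 501 of 519 coding bases (96.5%), with identical runs of up to 105 bases, so reads from there match both, and the split of reads between these 2 genes is uncertain. Of all 50-base stretches of the annotated transcripts 29.6% in Myl12a and 11.4% in Myl12b occur in another gene, as do 3.48% in Dynll1 and none in Dynll2.

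All 5 tested dynein light chains had a positive log2 fold change, at a median of 0.74, with 1 called. After the length correction all 5 were still positive at a median of 0.42, with none called and 2 at an unadjusted p under 0.05, and on the scale of equal totals 3 were positive and 2, Dynll2 and Dynlt3, negative. Dynlrb1, a roadblock light chain, was the most abundant at 174, 261 and 211 FPKM in the controls and 608, 279 and 420 in the noggin libraries. Its transcript has 684 bases, and its log2 fold change went from 0.96 (SE 0.308, adjusted p = 0.116) to 0.10 (SE 0.132) with the length correction. Dynlt3, a Tctex-type light chain, was at 44.3, 56.0 and 47.9 FPKM against 37.3, 67.3 and 90.5, with overlap. Dynlt1a was at 0.910, 1.59 and 0.612 FPKM against 2.70, 2.09 and 2.29, without overlap, but 67.7% of its 50-base stretches occur in other genes, mostly Dynlt1c, and its level is uncertain.

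The larger dynein subunits gave no call. Of 7 heavy, intermediate and light intermediate chains 5 were tested, all with a negative log2 fold change at a median of -0.38, none called by limma and 1 at an unadjusted p under 0.05; after the length correction the median was -0.40 with 4 negative, and quantile normalization also left 4 negative. Dync1h1, the motor subunit itself, was at 6.59, 6.46 and 8.06 FPKM in the controls and 6.06, 3.64 and 6.06 in the noggin libraries. Its groups did not overlap, but the gap was small. With the longest transcript of the tested motor genes, 14342 bases, it gave a log2 difference of -0.38 (SE 0.308, adjusted p = 0.443), which became 0.07 (SE 0.290) when length was corrected for.

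None of the tested intermediate and light intermediate chains, which link the dynein motor to cargo, was called. The light intermediate chain Dync1li2 was at 11.5, 12.9 and 13.4 FPKM against 5.49, 8.29 and 5.77, without overlap, at -0.87 (adjusted p = 0.111) and -0.40 after the correction. The related Dync1li1 was at 32.6, 42.8 and 42.4 FPKM against 18.7, 38.6 and 27.5, and the intermediate chain Dync1i2 at 16.2, 17.5 and 16.2 against 14.4, 17.7 and 7.93. Both of these overlapped between groups, at log2 fold changes of -0.51 and -0.37, and at -0.45 and -0.32 after the correction. The ratio of Dynll1 to Dync1h1 FPKM was 7.34, 10.6 and 7.05 in the controls and 30.2, 27.8 and 28.4 in the noggin libraries. On the length corrected scale it was 8.33, 13.8 and 9.13 against 26.5, 18.6 and 23.1, again without overlap. With 3 libraries against 3 an exact permutation test cannot give a p under 0.1. Dynll1 was the only dynein light chain called, so this gap largely restates that call and does not stand for the light chains together. After the correction Dynlrb1, Dynlt3, Dynll2 and Dynlt1a were at 0.10, 0.23, 0.42 and 1.00, beside 0.07 for Dync1h1.

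Non-muscle myosin II gave no call for either kind of subunit. The heavy chain genes Myh9 and Myh14 (myosin IIA and IIC) were at -1.52 and -1.24, and the 3 tested light chain genes Myl6, Myl12a and Myl12b between 0.70 and 0.99. By limma at an unadjusted p under 0.05 there were all 3 light chains and 1 heavy chain, Myh9. Myh9 was at 13.0, 11.2 and 12.4 FPKM in the controls and 9.03, 3.92 and 0.967 in the noggin libraries (SE of the log2 fold change 0.556, adjusted p = 0.141). Myh14 was at 8.14, 6.77 and 8.50 FPKM against 7.68, 2.53 and 0.687 (SE 0.567, adjusted p = 0.208). In both heavy chains noggin replicate 1 was nearest the controls and replicate 3 lowest, and the groups of Myh14 overlapped. After the length correction they were at -1.004 and -0.71. The third heavy chain of this kind, Myh10, was at most 0.256 FPKM in any library and was not tested.

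The light chains were abundant throughout. Myl6, the essential light chain, was at 605, 697 and 593 FPKM in the controls and 1826, 836 and 1299 in the noggin libraries. The regulatory light chain Myl12b, which carries the phosphorylation site that switches the motor on, was at 184, 200 and 174 FPKM against 467, 255 and 272, and Myl12a at 76.3, 77.8 and 69.5 against 150, 91.8 and 130. None of these overlapped between the groups, and noggin replicate 2 was the lowest of the noggin libraries for all 3. The log2 fold changes were 0.99, 0.78 and 0.70, with adjusted p of 0.111, 0.121 and 0.111. After the length correction Myl6, with a transcript of 678 bases, was at 0.13 (SE 0.110), while Myl12b and Myl12a were at 0.69 (SE 0.254) and 0.53 (SE 0.220). On the scale of equal totals Myl6 and Myl12b were at 0.28 and 0.07 and Myl12a at -0.01, so the sign of Myl12a flips there. Of the stretches of Myl6 38.1% occur in other genes, most of them in Gm5526.

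**Figure D3:**
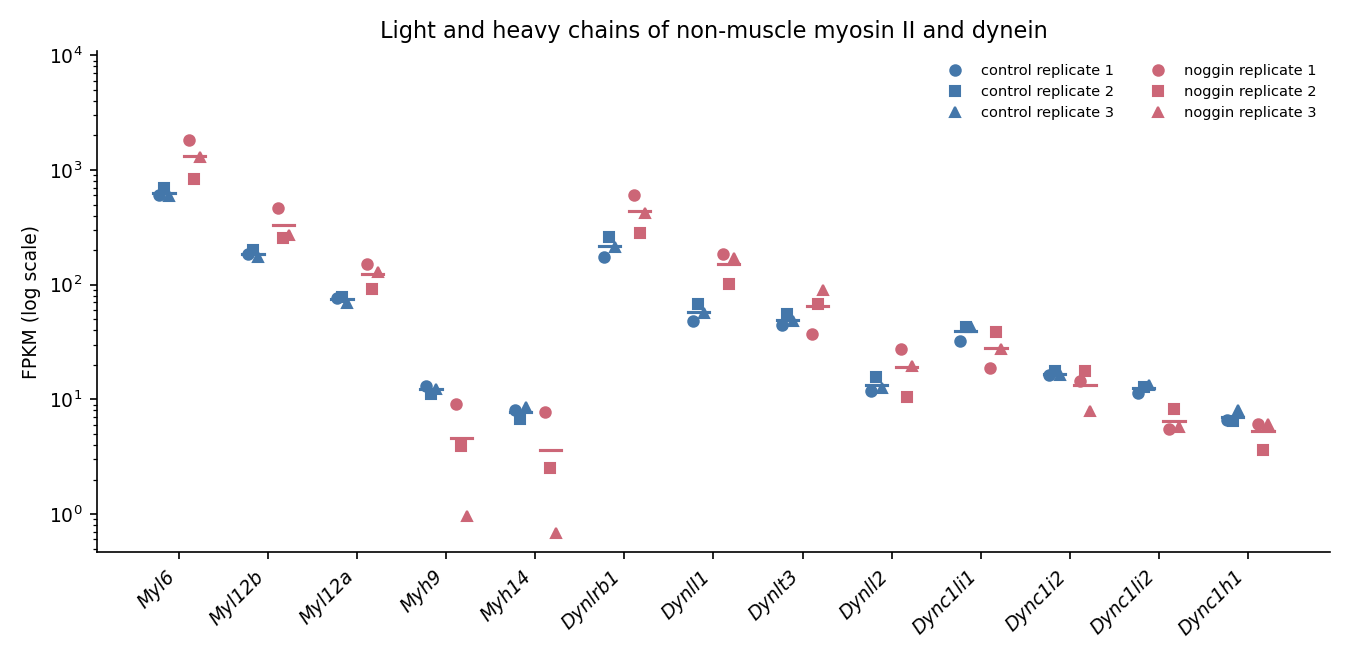
FPKM (vertical log axis) of the light and heavy chains of non-muscle myosin II and of dynein in each of the 6 libraries; blue points are controls, red points noggin libraries, shapes the replicate numbers and bars the group means. Myl6, Myl12b, Myl12a, Dynlrb1 and Dynll1 lie higher in all noggin libraries, while Myh9 and Myh14 spread down to 0.967 and 0.687 FPKM in noggin replicate 3.

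The summed FPKM of these light chains was 40.9, 54.2 and 40.0 times that of Myh9 and Myh14 in the controls and 146, 184 and 1028 times in the noggin libraries, with no overlap. After the length correction the ratios were 61.7, 78.9 and 64.7 in the controls and 72.4, 162 and 519 in the noggin libraries, so that noggin replicate 1 fell among the controls and the groups overlapped. The ratio of Myl12b to Myl12a differed less, 2.41, 2.57 and 2.50 against 3.11, 2.78 and 2.10.

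**Figure D4:**
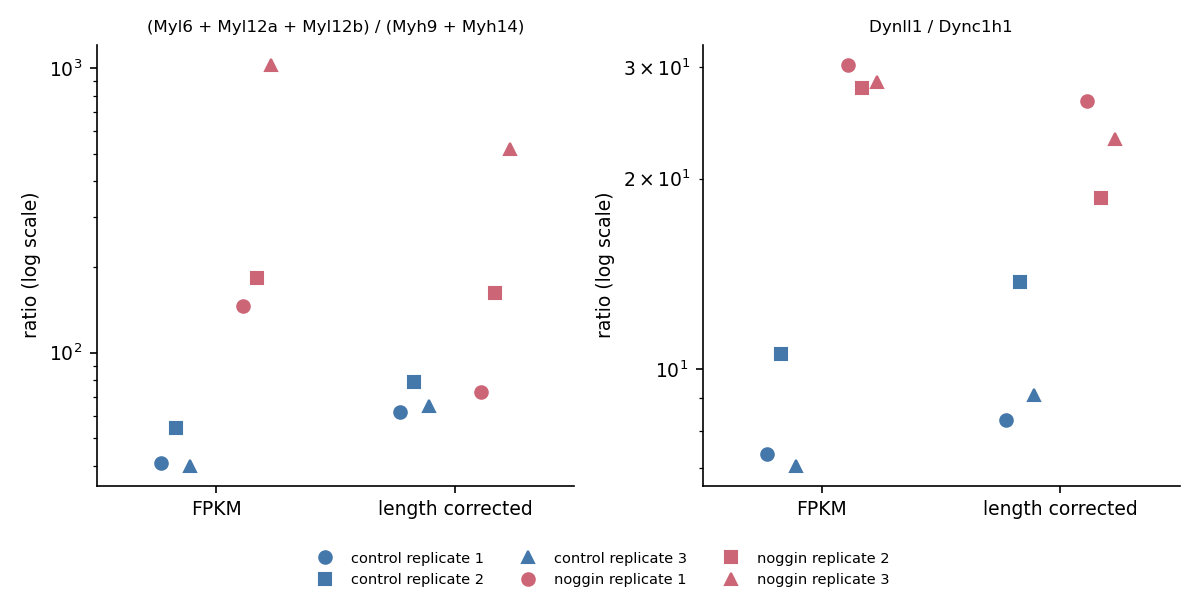
Ratio of summed light chain to heavy chain FPKM of non-muscle myosin II (left) and of Dynll1 to Dync1h1 (right), per library on vertical log axes, for FPKM as deposited and after the length correction. Without the correction the noggin libraries lie above all controls in both panels. With it, noggin replicate 1 lies at 72.4 among the controls on the left, and the panel on the right keeps its gap. The right panel holds only Dynll1, the dynein light chain that was called, and not the sum of the dynein light chains.

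Heavy chains of muscle myosin were nearly absent. None of the 11 muscle class II genes was tested, and the highest value of any in any library was 0.424 FPKM. Myh11, the smooth muscle heavy chain, was at 0.0148, 0.0160 and 0.0111 FPKM in the controls and 0.0461, 0.00429 and 0.124 in the noggin libraries. The list of 14 smooth muscle and stromal markers had a summed level of 3.78 to 6.96 FPKM against 7.33 to 11.0. In it Acta2, Des and Cnn1 were at or near 0 in every library, but other members were not. Smtn was at 5.07, 2.91 and 2.28 FPKM in the controls and 3.09, 4.47 and 9.28 in the noggin libraries. Tagln was at 1.18, 0.861 and 1.11 against 1.49, 0.239 and 1.60. Vim was at most 0.164 FPKM in the controls and at 3.85, 1.28 and 0 in noggin replicates 1 to 3. One striated muscle light chain was nevertheless present: Myl7, the atrial regulatory light chain, was at 0.682, 0.903 and 0.734 FPKM in the controls and 15.3, 2.49 and 11.9 in the noggin libraries. All noggin values were higher, over a wide range. Its log2 fold change was 2.35 (SE 0.571, adjusted p = 0.0763), and 1.42 (adjusted p = 0.137) after the length correction, its transcript having 590 bases. Without noggin replicate 2 it was called, at 3.03 (limma adjusted p = 0.0140). No control reached the 1 FPKM set for testing, so Myl7 was tested only through its noggin values. The filter stayed fixed on all 6 libraries when 1 was left out. These p-values for Myl7 therefore give no independent support. Of 13 striated muscle markers Tnnt3 was listed at 0 in every library, Ttn and Actc1 were near 0, and Tnni3 was at 474 to 642 FPKM in the controls and 607 to 1276 in the noggin libraries. Acta1 was at 0.812, 1.10 and 1.65 FPKM in the controls and 2.67, 3.42 and 2.01 in the noggin libraries, without overlap (log2 fold change 0.76, adjusted p = 0.175). Tnni2 was at 2.32, 3.28 and 1.89 FPKM against 10.6, 2.67 and 1.62. It was highest in noggin replicate 1, where Myl7 was highest too, and lowest in noggin replicate 3, where Myl7 was at 11.9. Mb was at 0.239, 0.230 and 0.575 FPKM in the controls and at 0 in all noggin libraries. The part of striated muscle genes in the level of Myl7 was not tested.

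Unconventional myosins, single-headed or dimeric motors that move membranes and anchor them to actin, were on the negative side with no limma call. At an unadjusted p under 0.05 there were 8 lower, and 2 lower and 1 higher after the length correction. Of all tested genes 10.9% were lower at that level, and 7.19% lower and 9.63% higher after the correction. Of 24 such genes 13 were tested, 12 of them negative on the deposited scale, on the scale of equal totals and with quantile normalization. Their median log2 fold change was -0.89, and -0.38 after the length correction with 11 negative. In 8 of the 13 all noggin libraries lay below all controls, against 18% of all tested genes. The median transcript of the 13 had 6475 bases. Of the 1468 tested genes of 5000 bases or more, 1205 had a negative log2 fold change. Myo1c, a class I myosin that tethers vesicles and plasma membrane, was at 29.0, 30.4 and 33.4 FPKM in the controls and 13.8, 21.4 and 9.91 in the noggin libraries. Its groups did not overlap, and its log2 fold change was -1.05 (SE 0.293, adjusted p = 0.0952), or -0.58 after the correction. Myo18a, which binds Golgi membranes, was at 12.4, 13.5 and 16.1 FPKM against 7.68, 4.48 and 2.80, without overlap, at -1.40 (adjusted p = 0.0831) and -0.87 after the correction.

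Myo19, a myosin of the mitochondrial outer membrane, was at 18.9, 23.1 and 22.0 FPKM against 12.4, 13.9 and 3.67. Myo1d was at 18.4, 17.9 and 18.4 FPKM against 12.9, 13.1 and 4.71. Myo6, the minus-end directed myosin of endocytosis, was at 13.8, 17.6 and 17.5 FPKM against 7.69, 11.6 and 5.47. In all 3 of these genes noggin replicate 3 was the lowest library and the groups did not overlap. Their log2 fold changes were -1.19, -0.89 and -0.95 (adjusted p 0.147, 0.185 and 0.122), and -0.78, -0.38 and -0.43 after the length correction. Myo5b, which carries Rab11 recycling endosomes to the apical membrane, was at 8.19, 7.67 and 8.08 FPKM against 5.17, 3.39 and 8.82, with overlap, at -0.48 (adjusted p = 0.406) and 0.04 after the correction.

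**Figure D5:**
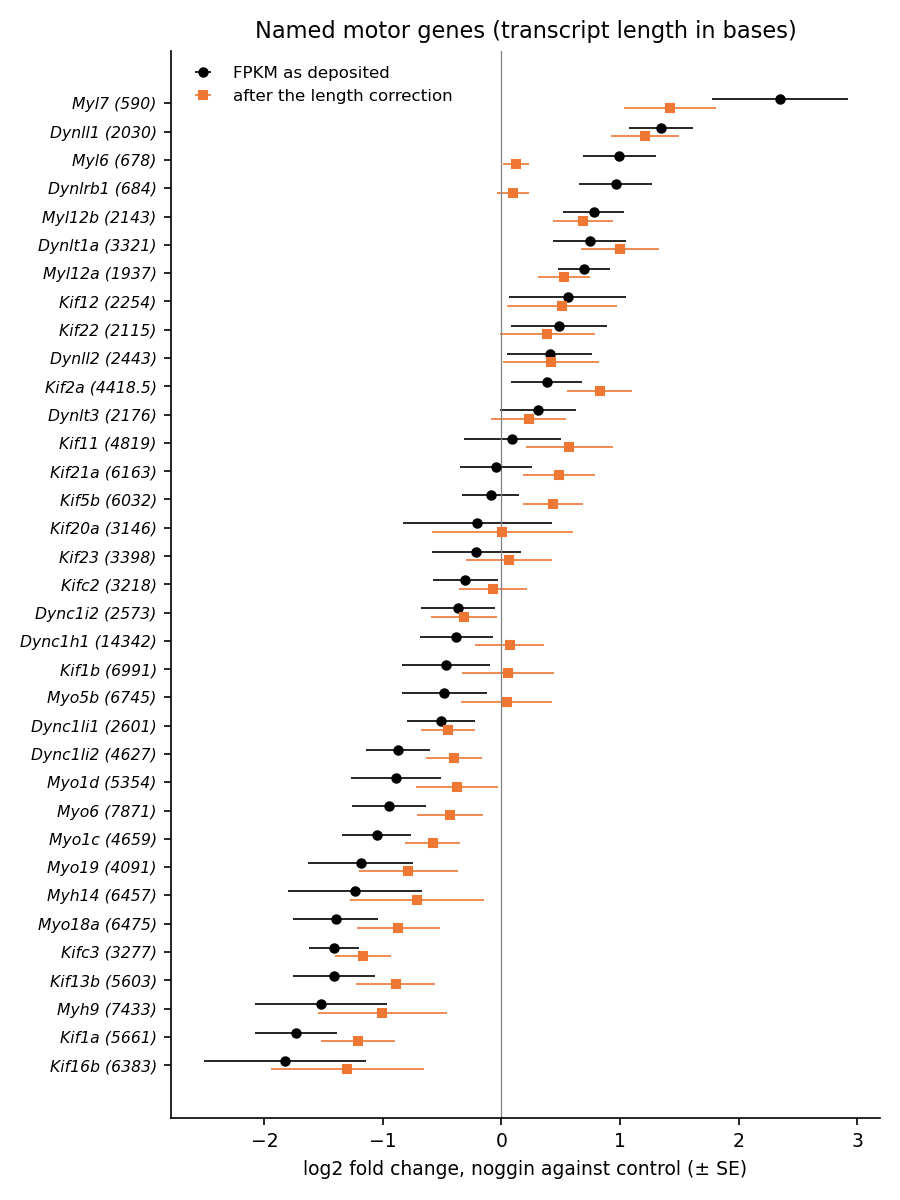
Log2 fold change of noggin against control libraries with its standard error for 35 named motor genes, sorted by the value for FPKM as deposited (black); orange points are the values after the length correction, and the transcript length in bases stands beside each gene. Short transcripts such as Myl6 and Dynlrb1 move from near 1 to near 0, long ones such as Dync1h1, Kif5b and Kif1a move up, and Kifc3 and Dynll1 move less than these.

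Partners, regulators and tracks of the motors were read from lists of their own. Of 14 tested kinesin light chains and cargo adaptors 11 had a negative log2 fold change, at a median of -0.58 and of -0.48 after the length correction. Trak2, which links kinesin-1 and dynein to mitochondria, fell from 14.1, 18.8 and 18.8 FPKM in the controls to 6.32, 7.28 and 5.17 in the noggin libraries, at -1.33 (SE 0.266, limma adjusted p = 0.04997), and was at -0.80 (adjusted p = 0.161) after the length correction. Its paralog Trak1 was at -1.02 (adjusted p = 0.0691). The 22 tested genes of dynactin and dynein adaptors gave no limma call, with 4 higher and 2 lower at an unadjusted p under 0.05, at a median of -0.18 that was -0.02 after the correction. Neither did the 9 tested kinases and phosphatase subunits that act on myosin light chain, at a median of -0.60 and -0.13, with 3 lower at an unadjusted p under 0.05.

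All 11 tested tubulins, the subunits of microtubules, had a positive log2 fold change, at a median of 0.79 and of 0.55 after the length correction; with quantile normalization 9 were positive and on the scale of equal totals 6. Tuba1c rose, from 19.5, 18.4 and 15.1 FPKM to 39.8, 35.4 and 34.5, at 1.01 (limma adjusted p = 0.04997), and was at 0.86 after the correction (adjusted p = 0.0872). Of 9 tested actins, tropomyosins and actin binding proteins 8 were positive, at a median of 0.36 that was 0.14 after the correction, and the median was -0.26 with quantile normalization and -0.34 on the scale of equal totals. Cfl1, the actin severing protein cofilin, was the call in that list. It rose from 407, 431 and 365 FPKM to 957, 716 and 784, at 1.02 (limma adjusted p = 0.0497), and was at 1.004 (adjusted p = 0.0601) after the correction.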

How the data were processed

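The authors deposited FPKM for 23284 genes in 6 libraries. Total RNA was treated with DNase, amplified with the V3 SMART-Seq kit for ultra low input and sequenced single-end on a HiSeq2500, per the labels' protocols, and per the submitters' processing notes the build was mm10 and bcl2fastq and FastQC 0.10.0 were used. Which aligner, quantifier and annotation they used is not given in these sources. Whole reads could not be recovered from the FPKM values, so depth is unknown, and no interval or limit that needs a count is given.

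Values were transformed to log2(FPKM + 1), genes with at least 1 FPKM in 3 or more libraries were kept, and limma 3.58.1 (R 4.3.3) was fitted with a mean-variance trend and the group as the only term, over all genes. Tables were made in Python 3.11.15 with pandas 2.3.3, and the fit was tested on simulated data. Symbols were matched to GENCODE M21, 20911 directly and 1915 by an older symbol, with 458 unmatched. Transcript length was the median over transcripts linked to RefSeq. That choice was made after the annotation was seen, because the median over all annotated transcripts counts short fragments (599 bases for Dync1h1, against 14342); other length definitions gave other calls, given with the alternatives. The correction subtracted a lowess curve (span 0.3) on log10 length from the log2 values of each library relative to the average of all 6.

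Members and lists were chosen with earlier results of these data known. The genes named are those called, the 4 most abundant tested members of each role, the 10 with the smallest p in each fit, and a short list of core subunits; list members are named by smallest p. One list of adaptors and a gene that overlaps a member are not reported here. Alternatives were other pseudocounts, filters and scalings, no trend, a replicate block and leaving out each library, all over the same tested genes except where the filter itself was changed. The replicate numbers did not pair the samples: the correlations of same-numbered libraries' deviations from their group means were 0.105, -0.141 and 0.00519.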

Additional observations from a re-analysis of the deposited data

How the results depend on the processing

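The number of motor genes called, 3 in the test on FPKM as deposited, was 1 with a pseudocount of 0.1 or of 0.01, 0 without a filter on low values (which adds low motor genes, for 104 in all), 0 without a mean-variance trend, 0 with the length correction and 7 (1 higher, 6 lower) with the libraries rescaled to equal totals. Leaving out 1 library gave 0 to 14 calls, or 0 to 3 with the length correction, the highest without noggin replicate 2 in both. The motor counts moved along with those over all genes, which were 4 to 1187 higher and 5 to 825 lower with 1 library left out, and 6 to 249 higher and 0 to 105 lower with the correction. With the replicate number as a block 1 was called (Kifc3, adjusted p = 0.0437), and 0 with the block and the length correction; same-numbered libraries share only a number, and control replicates 2 and 3 each correlated best with a noggin library of another number. With length taken as the median over all annotated transcripts, a definition added after seeing the data, 2 were called with the correction (Kif1a and Kifc3), and with the longest transcript 0. The median log2 fold change of the tested motor genes, -0.41, was -0.53 with a pseudocount of 0.01, -0.02 without a filter, -1.04 on equal totals and -0.07 with the length correction. The corrected median was -0.30 with the median over all transcripts and -0.18 to 0.06 with 1 library left out. The cause of these shifts was not tested.

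Of 35 named motor genes 19 kept the sign of their log2 fold change, with and without the length correction, under every setting run. The other 16 changed sign in 48 of 832 values, none of them called on either side. On equal totals Dynll2 was at -0.27, Dynlt3 at -0.40, Kif11 at -0.43, Kif22 at -0.14, Kif2a at -0.04 and Myl12a at -0.01, and with quantile normalization Kif21a was at 0.04. The length correction turned Dync1h1 to 0.07, Kif1b to 0.05, Kif20a to 0.01, Kif21a to 0.48, Kif23 to 0.06, Kif5b to 0.43 and Myo5b to 0.04. Of these corrected values the median over all transcripts gave -0.62 for Dync1h1, -0.11 for Kif1b, -0.35 for Kif23, -0.02 for Kif5b and -0.60 for Myo5b, and also -0.14 for Dynlt3 and 0.07 for Kifc2, while the longest transcript gave -0.0031 for Kif1b, -0.02 for Kif20a, -0.08 for Kif23 and -0.00031 for Myo5b. With 1 library left out, values as deposited ranged from -0.26 to 0.42 for Kif11, -0.69 to 0.54 for Kif20a, -0.21 to 0.11 for Kif21a, -0.49 to 0.0035 for Kif23 and -0.26 to 0.01 for Kif5b. Length corrected values ranged from -0.06 to 0.23 for Dync1h1, -0.004 to 0.18 for Dynlrb1, -0.10 to 0.56 for Dynlt3, -0.32 to 0.31 for Kif1b, -0.50 to 0.67 for Kif20a, -0.22 to 0.25 for Kif23, -0.15 to 0.06 for Kifc2, -0.63 to 0.01 for Myo1d and -0.30 to 0.38 for Myo5b. With 3 libraries a group and depth unknown, low genes such as Kif20a are the least certain.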

Other observations

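Myo1f and Myo1g, class I myosins known from leukocytes, were too low to be tested and stood out in 1 library: noggin replicate 1 had 1.11 and 1.24 FPKM, and every other library was at or under 0.122 and 0.0285. These genes were chosen after their values were seen. The leukocyte markers Tyrobp and Fcer1g were at 9.04 and 10.8 FPKM in that library, at 3.42 and 3.99 in noggin replicate 2, at 22.3 and 3.40 in noggin replicate 3, and at most 0.587 and 0.406 FPKM in the controls. Ptprc, the pan-leukocyte marker, was at 0.0493 FPKM in noggin replicate 1 and 1.31 in noggin replicate 3. Itgam and Csf1r were at 0.0407 and 0.0688 FPKM in noggin replicate 1. Of 4 tested leukocyte markers 1, Lcp1, was lower, from 55.4, 62.9 and 63.1 FPKM in the controls to 22.6, 44.3 and 29.8 in the noggin libraries. The other 3 were higher, but only their noggin values reached the 1 FPKM set for testing. The part of leukocytes in these levels was not tested.

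Dync1i1, the intermediate chain of neuronal dynein, was likewise untested and chosen after its values were seen: it was at 6.07 FPKM in noggin replicate 3 and between 0.0337 and 0.303 in the other libraries.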
